A study of Mus musculus with 14 samples.

Results

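Interferon-stimulated genes are the antiviral and immune genes that cells switch on in response to interferons, and 38 of them were taken from a list of gene symbols and placed in 9 groups by role. The deposited count and FPKM tables hold 36 of the 38, and all 36 passed the filter on low counts, among 14100 of 21878 genes tested. The other members, Mx1 and Mx2, were not analysed here. The measurements are mRNA sequencing of mouse hepatocytes of the C57BL/6 strain, with liver as the labelled source, in 7 groups of 2 libraries each.

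The fresh groups were freshly isolated hepatocytes (FH) and freshly isolated hepatocytes labelled YAP-/- (FH YAP-/-), a knockout label for YAP, a transcriptional co-activator of the Hippo pathway. The cultured groups were BM hepatocytes at 1 day (BM 1D), at 3 days (BM 3D) and at 3 weeks (BM 3W), YAP-/- BM hepatocytes at 3 weeks (BM 3W YAP-/-) and LBDXL hepatocytes at 3 weeks (LBDXL 3W). The labels do not spell out BM or LBDXL, the promoter or Cre line behind the YAP-/- genotype, the age of the animals, or whether libraries that share a label are separate animals or cultures. The p-values therefore measure the spread between these libraries, which may be technical.

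Total counts ran from 15501005 to 21220365 per library. Yap1 itself stood at 80.2 to 131 CPM, counts scaled to a common library depth, in the 10 libraries not labelled YAP-/-. It was at 23.1 and 26.5 CPM in FH YAP-/- and at 6.66 and 7.75 CPM in BM 3W YAP-/-, so the fresh YAP-/- libraries kept more Yap1 than the cultured ones. The summed level of 10 hepatocyte markers was 241163 to 244361 CPM in FH, 63421 to 69944 CPM in BM 1D, 39992 to 88388 CPM in BM 3D and 178238 to 217835 CPM in LBDXL 3W. BM 3W library 2 stood apart at 5084 CPM, against 36409 CPM in BM 3W library 1. Fresh libraries of a group differed little from each other and cultured ones much more: the chi-square per degree of freedom between the 2 libraries was 5.49 in FH and 4.04 in FH YAP-/-, and 68.0 to 235 in the cultures.

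Type I and type III interferons bind receptors that activate the kinases JAK1 and TYK2. A complex that holds STAT2 and IRF9 then binds the interferon-stimulated response element (ISRE) in the promoters of target genes. Type II interferon is known to act through another element, the gamma-activated site (GAS). In the liver, hepatocytes respond to type I interferons, and Kupffer cells, the resident macrophages, are among the other responders.

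Promoters of some of the genes below hold the letters of the elements through which the response is known to act. RefSeq promoter windows, 250 bases before to 50 bases after a gene's start (GRCm38.p6), were matched for 28 of the 36 genes. The ISRE core was searched as GAAA, any 2 bases and GAAA again, on both strands, with overlapping matches counted. It was present in 16 of the 28 genes, which is 57.1% of them, against 3.99% of all 27025 genes with a window and 3.44% of all 32851 windows. The GAS letters TTCNNNGAA, which read the same on both strands, were present in 6 of the 28, which is 21.4%, against 9.55% of all genes and 8.30% of all windows. The genes without a matched window were Ifi27, Usp18, Parp14, Parp9, Iigp1, Oas2, Dhx58 and Zbp1. A match describes letters only, and it does not show that a factor binds there.

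The 5 stretches that follow belong to genes on which the results below turn. Only genes with an ISRE core in the window could be shown. The stretches are given 5′ to 3′ in the direction of the gene, with ISRE cores and GAS letters in capitals. They lie at chr4:156200850-156200921 (minus strand) for Isg15, chr12:26456538-26456597 (minus strand) for Rsad2, chr5:120907526-120907648 (minus strand) for Oas1a, chr5:120777700-120777759 (minus strand) for Oas3 and chr3:142620579-142620638 (plus strand) for Gbp2.
Isg15: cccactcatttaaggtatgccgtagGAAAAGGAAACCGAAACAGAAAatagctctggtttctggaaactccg
Rsad2: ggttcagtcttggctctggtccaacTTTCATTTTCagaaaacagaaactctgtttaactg
Oas1a: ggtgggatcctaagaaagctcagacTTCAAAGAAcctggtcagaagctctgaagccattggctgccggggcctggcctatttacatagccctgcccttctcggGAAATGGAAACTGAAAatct
Oas3: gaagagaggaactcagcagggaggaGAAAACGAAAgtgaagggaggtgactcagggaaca
Gbp2: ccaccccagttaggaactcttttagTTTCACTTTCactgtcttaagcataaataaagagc
Isg15 holds 3 overlapping cores, the first of which begins 78 bases before the start. Oas1a holds 2 overlapping cores from 20 bases before the start, and GAS letters 98 bases before it. Rsad2, Oas3 and Gbp2 each hold 1 core, at 120, 75 and 59 bases before the start.

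The Ifit genes lie together on chromosome 19 in the order Ifit2, Ifit3, Ifit3b and Ifit1, with 6584, 18547 and 27485 bases between neighbours. Ifit3 and Ifit3b are near-identical copies, so the split of reads between them is uncertain. Their promoter stretches show the likeness, and are set beside that of Ifit1. They lie at chr19:34640760-34640838 (plus strand), chr19:34583348-34583441 (plus strand) and chr19:34607744-34607837 (plus strand).
Ifit1: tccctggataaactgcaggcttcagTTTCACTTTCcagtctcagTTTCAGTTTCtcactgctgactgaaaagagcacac
Ifit3: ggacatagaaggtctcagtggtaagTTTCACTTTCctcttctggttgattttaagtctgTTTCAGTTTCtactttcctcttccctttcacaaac
Ifit3b: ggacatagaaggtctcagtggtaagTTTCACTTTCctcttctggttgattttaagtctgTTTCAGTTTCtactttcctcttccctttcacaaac
All 94 bases compared were the same in Ifit3 and Ifit3b, and each of the 3 genes holds 2 cores. The windows of Ifit2 hold no ISRE core in these letters, and GAS letters 241 bases before the start.

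Igtp and Irgm2, immunity-related GTPases that guard against intracellular pathogens, lie 7384 bases apart on chromosome 11. Their stretches are shown as a pair because both genes stand in several of the results below. They lie at chr11:58199486-58199555 (plus strand) and chr11:58214877-58214947 (plus strand).
Igtp: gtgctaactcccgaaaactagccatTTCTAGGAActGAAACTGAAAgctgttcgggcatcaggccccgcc
Irgm2: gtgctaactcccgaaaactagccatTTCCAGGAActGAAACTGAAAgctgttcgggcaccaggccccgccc
Both stretches hold GAS letters followed by 1 ISRE core, and 68 of the 70 bases compared were the same.

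**Figure D1:**
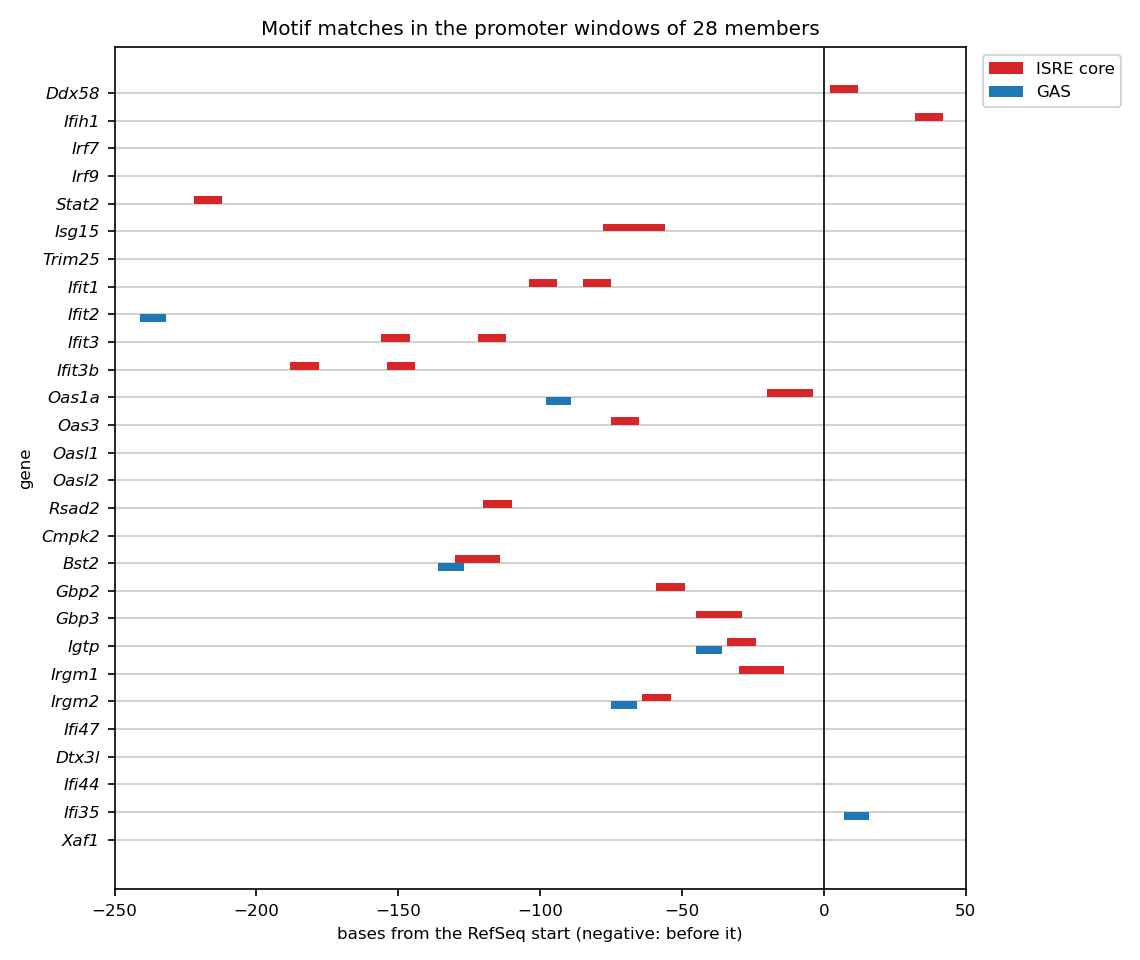
Positions of the ISRE core and of the GAS letters in the RefSeq promoter windows of 28 genes, in bases from the start; each row is a gene and each bar a match. Cores were present in 16 of the 28 genes and GAS letters in 6.

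Per length of transcript, in FPKM (fragments scaled by transcript length and by depth), the 36 genes differed widely in fresh hepatocytes. Iigp1, an immunity-related GTPase, stood at 76.1 ± 0.41 FPKM (SD, n = 2) in FH, and Bst2, the tetherin that holds budding virus particles at the cell surface, at 73.3 ± 0.55 FPKM. Trim25, a ubiquitin ligase of the RIG-I pathway, followed at 15.0 ± 0.18 FPKM and Ifi27 at 12.8 ± 1.2 FPKM. The lowest were Oas2 at 0.047 ± 0.052 FPKM and Oas3 at 0.067 ± 0.016 FPKM, members of the 2′-5′ oligoadenylate synthetase family, which make the messenger that activates RNase L. In BM 1D, Isg15, a ubiquitin-like protein joined to other proteins, was among the highest at 44.5 ± 28 FPKM, beside Bst2 at 173 ± 65 FPKM. Bst2 and Iigp1 were the highest by FPKM in LBDXL 3W too, at 50.2 ± 21 and 55.8 ± 14 FPKM.

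Across the 7 groups, BM 1D held the highest mean of 20 of the 36 genes and LBDXL 3W held the lowest mean of 22 and the highest of none. These CPM values are scaled by TMM, a method that sets the bulk of genes level between libraries. With CPM from total counts, BM 1D was highest for 27 and LBDXL 3W lowest for 25. The same ranking was not made over all genes, so these counts are not shown to be particular to the 36. In log2 CPM over the FH mean, the median of the 36 genes was 0.93 and 1.20 in the BM 1D libraries and -1.02 and -1.23 in the LBDXL 3W libraries. It was 0.38 and 0.27 in FH YAP-/- and -0.44 and -0.17 in BM 3D. In the 3-week BM cultures it was 0.087 and -0.40, or -0.34 and -0.35 under the YAP-/- label. On the TMM scale the FH YAP-/- libraries thus stood a little above FH. The BM 3D, BM 3W and BM 3W YAP-/- libraries stood near or below it on that scale. With total count scaling, against FH, 15 genes rose and 0 fell in BM 3D, and 18 rose and 2 fell in BM 3W. Of the 14100 genes tested, 7575 rose and 1038 fell in BM 3D under that scaling, and 9282 rose and 1364 fell in BM 3W. These are larger shares of risers than among the 36.

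**Figure D2:**
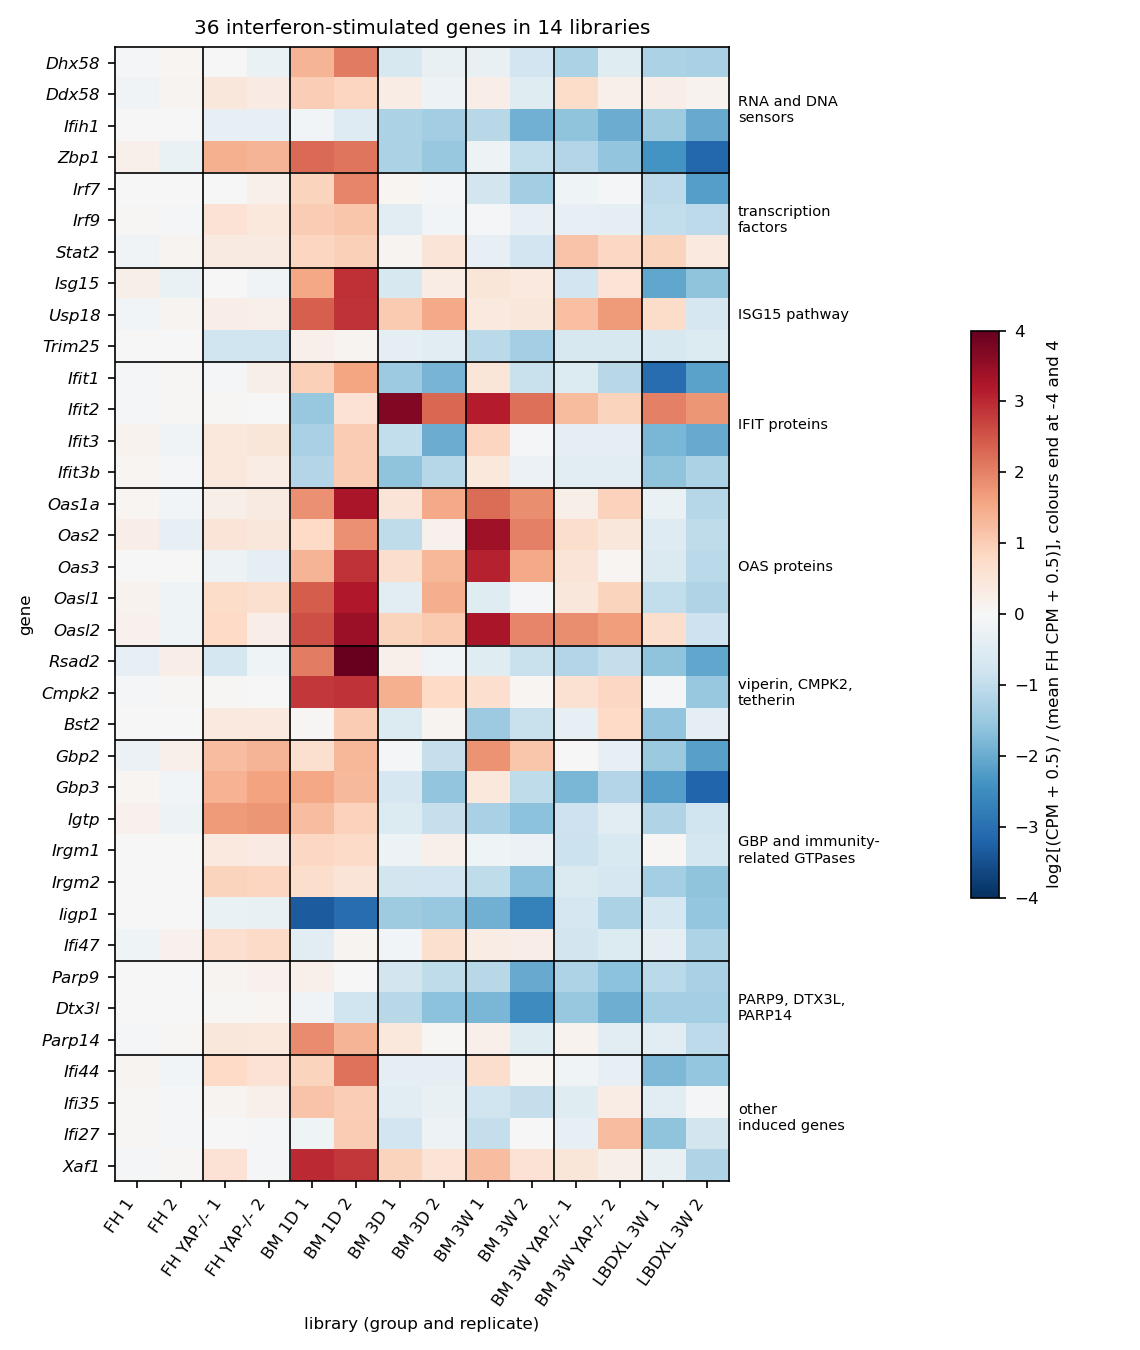
Level of the 36 genes (rows, grouped by role) in the 14 libraries (columns), as log2 of CPM plus 0.5 over the FH mean plus 0.5; red is above FH, blue below. The BM 1D columns are mostly red, with library medians of 0.93 and 1.20, and the LBDXL 3W columns mostly blue, with medians of -1.02 and -1.23.

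Most of these genes stood highest after 1 day of BM culture. Of the 36, 21 rose and 1 fell from FH to BM 1D (edgeR quasi-likelihood test, Benjamini-Hochberg adjusted p under 0.05), where 23.6% of all genes tested rose and 20.2% fell. The median log2 fold change was 1.10 over the 36 genes and 0.17 over all genes. In RNA from whole samples, fewer cells of a type and less RNA per cell cannot be told apart, here and in every result below.

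The sensors and the transcription factors of the response rose nearly throughout, with 3 of 4 and 3 of 3 higher. Zbp1, a sensor of Z-form nucleic acid, was at 7.08 and 4.99 CPM in the FH libraries and at 31.0 and 28.6 CPM in BM 1D. Its log2 fold change was 2.30 ± 0.42 (SE; adjusted p = 0.00143). Dhx58, which encodes the RNA helicase LGP2, was at 8.27 and 9.34 CPM in FH and at 23.4 and 38.6 CPM in BM 1D, a log2 fold change of 1.81 ± 0.36 (adjusted p = 0.00227). Irf7, the factor that amplifies interferon gene transcription, stood at 32.4 and 31.3 CPM in FH and at 60.0 and 124 CPM in BM 1D (1.53 ± 0.41, adjusted p = 0.0113). The libraries of the groups did not overlap for any of these genes, but BM 1D library 2 held far more Irf7 than library 1. How often libraries lie apart in this way over all genes was not counted, here and in the results below. Irf9 and Stat2, partners in the ISRE-binding complex, had log2 fold changes of 1.08 ± 0.19 and 0.91 ± 0.24, and Ddx58, which encodes the RNA sensor RIG-I, one of 0.94 ± 0.28. Ifih1, which encodes the sensor MDA5, was at 93.2 and 90.5 CPM in FH and at 85.3 and 63.4 CPM in BM 1D and did not pass.

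In the ISG15 pathway, Isg15 and Usp18, the protease that removes ISG15 and dampens receptor signalling, rose. Isg15 was at 5.41 and 3.64 CPM in FH and at 14.2 and 37.7 CPM in BM 1D (log2 fold change 2.52 ± 0.60, adjusted p = 0.00628). Usp18 was at 8.27 and 9.73 CPM in FH and at 49.0 and 70.3 CPM in BM 1D. Trim25 had a log2 fold change of 0.16 and did not pass.

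Among the effectors, genes of the oligoadenylate synthetase family and of the viperin locus rose, and so did Xaf1. Rsad2, which encodes the antiviral enzyme viperin, was at 5.49 and 8.55 CPM in FH and at 30.7 and 121 CPM in BM 1D. This was a log2 fold change of 3.43 ± 0.57 (adjusted p = 0.000772), and 1 BM 1D library was far above the other. Cmpk2, its neighbour 12664 bases away on chromosome 12, was at 2.23 and 2.45 CPM in FH and at 19.8 and 20.4 CPM in BM 1D (3.10 ± 0.56, adjusted p = 0.0013). Of the oligoadenylate synthetase genes 4 of 5 rose. Oasl2 had a log2 fold change of 3.42 ± 0.68, Oas1a of 3.10 ± 0.67, Oas3 of 3.09 ± 0.92 and Oasl1 of 2.95 ± 0.55. Oas2 had one of 2.05 ± 1.17 and did not pass (adjusted p = 0.178). Xaf1, a gene linked to cell death, rose from 2.78 and 3.01 CPM to 26.6 and 23.7 CPM (3.12 ± 0.45, adjusted p = 0.000339). Ifi44 and Ifi35 rose by 1.79 ± 0.45 and 1.08 ± 0.26. Bst2, at 73.8 and 73.3 CPM in FH and 76.4 and 151 CPM in BM 1D, and Ifi27, at 32.4 and 30.0 CPM and at 27.5 and 63.4 CPM, did not pass.

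The IFIT genes, whose proteins bind viral RNA, were not among those called. None of the 4 passed the edgeR test, and 1 of them, Ifit1, had an unadjusted p under 0.05 (adjusted p = 0.0592). Ifit1 did pass, as higher, with the DESeq2 Wald test, with total count scaling, in FPKM, with no filter on low counts and when the groups were fitted alone. Ifit1 was at 7.16 and 7.83 CPM in FH and at 14.9 and 23.6 CPM in BM 1D. Ifit3 was at 8.03 and 6.57 CPM in FH and at 2.66 and 15.3 CPM in BM 1D, so that the FH libraries lay between the BM 1D libraries. Ifit2 was at 2.23 and 2.45 CPM in FH and at 0.496 and 3.70 CPM in BM 1D, which is 11 and 71 counts. The log2 fold changes of Ifit1, Ifit3, Ifit3b and Ifit2 were 1.36, 0.30, 0.36 and -0.17, and Ifit2 passed as lower without BM 1D library 2.

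The GTPases were split. Igtp, Irgm1 and Irgm2 rose, by log2 fold changes of 1.10 ± 0.25, 0.80 ± 0.24 and 0.62 ± 0.22. Iigp1, of the same family, fell from 638 and 646 CPM in FH to 63.8 and 77.9 CPM in BM 1D (-3.18 ± 0.37, adjusted p = 9.84e-05). It was the only one of the 36 that fell in this comparison. Gbp2 and Gbp3, guanylate-binding proteins, had log2 fold changes of 1.11 ± 0.47 and 1.50 ± 0.59 and did not pass, and Ifi47 was at 9.07 and 11.6 CPM in FH and at 7.36 and 11.1 CPM in BM 1D. Parp14, an ADP-ribosyltransferase, rose by 1.66 ± 0.32, whereas the gene pair Parp9 and Dtx3l, whose exons overlap on opposite strands, had log2 fold changes of 0.09 and -0.42 and did not pass.

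The 36 genes differed between the 2 BM 1D libraries more than genes at large did. Library 2 was over 1.5 times library 1 for 17 of the 36, and the median absolute log2 difference was 0.60 over the 36 and 0.36 over all genes tested. Summed levels of 12 Kupffer cell and macrophage markers were 152 CPM in BM 1D library 1 and 373 CPM in library 2, against 103 to 151 CPM in FH. Of those markers 1 rose and 4 fell, and their part in the result was not tested. For plasmacytoid dendritic cells, a major source of type I interferon, the 6 listed markers summed to 25.05 and 36.4 CPM in BM 1D against 13.1 to 17.4 CPM in FH, and 1 of the 3 tested rose. Of these markers Siglech was at 0 in every cultured group and Ccr9 in BM 1D, while the sum was 69.4 to 99.4 CPM in BM 3W and 141 to 187 CPM in BM 3W YAP-/-. The larger sum does not stand for all of them: of the 3 tested, 1 was higher and 2 lower in BM 3W YAP-/- than in BM 3W. Cholangiocyte markers summed to 133 to 234 CPM in BM 1D against 25.01 to 29.8 CPM in FH, with 4 of the 6 tested higher, and the part of these cells was not tested either.

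Under the 23 alternative settings, 13 of the 22 calls held throughout: Cmpk2, Dhx58, Ifi35, Iigp1, Irf9, Oas1a, Oasl1, Oasl2, Parp14, Rsad2, Usp18, Xaf1 and Zbp1. Isg15 and Ifi44 lost the call without BM 1D library 2 or FH library 2, Irf7 and Oas3 without BM 1D library 2 or either FH library, Igtp without FH library 2, Stat2 without FH library 1, and Ddx58, Irgm1 and Irgm2 without one or another of these libraries. Without FH library 2, 13 rose and 1 fell.

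**Figure D3:**
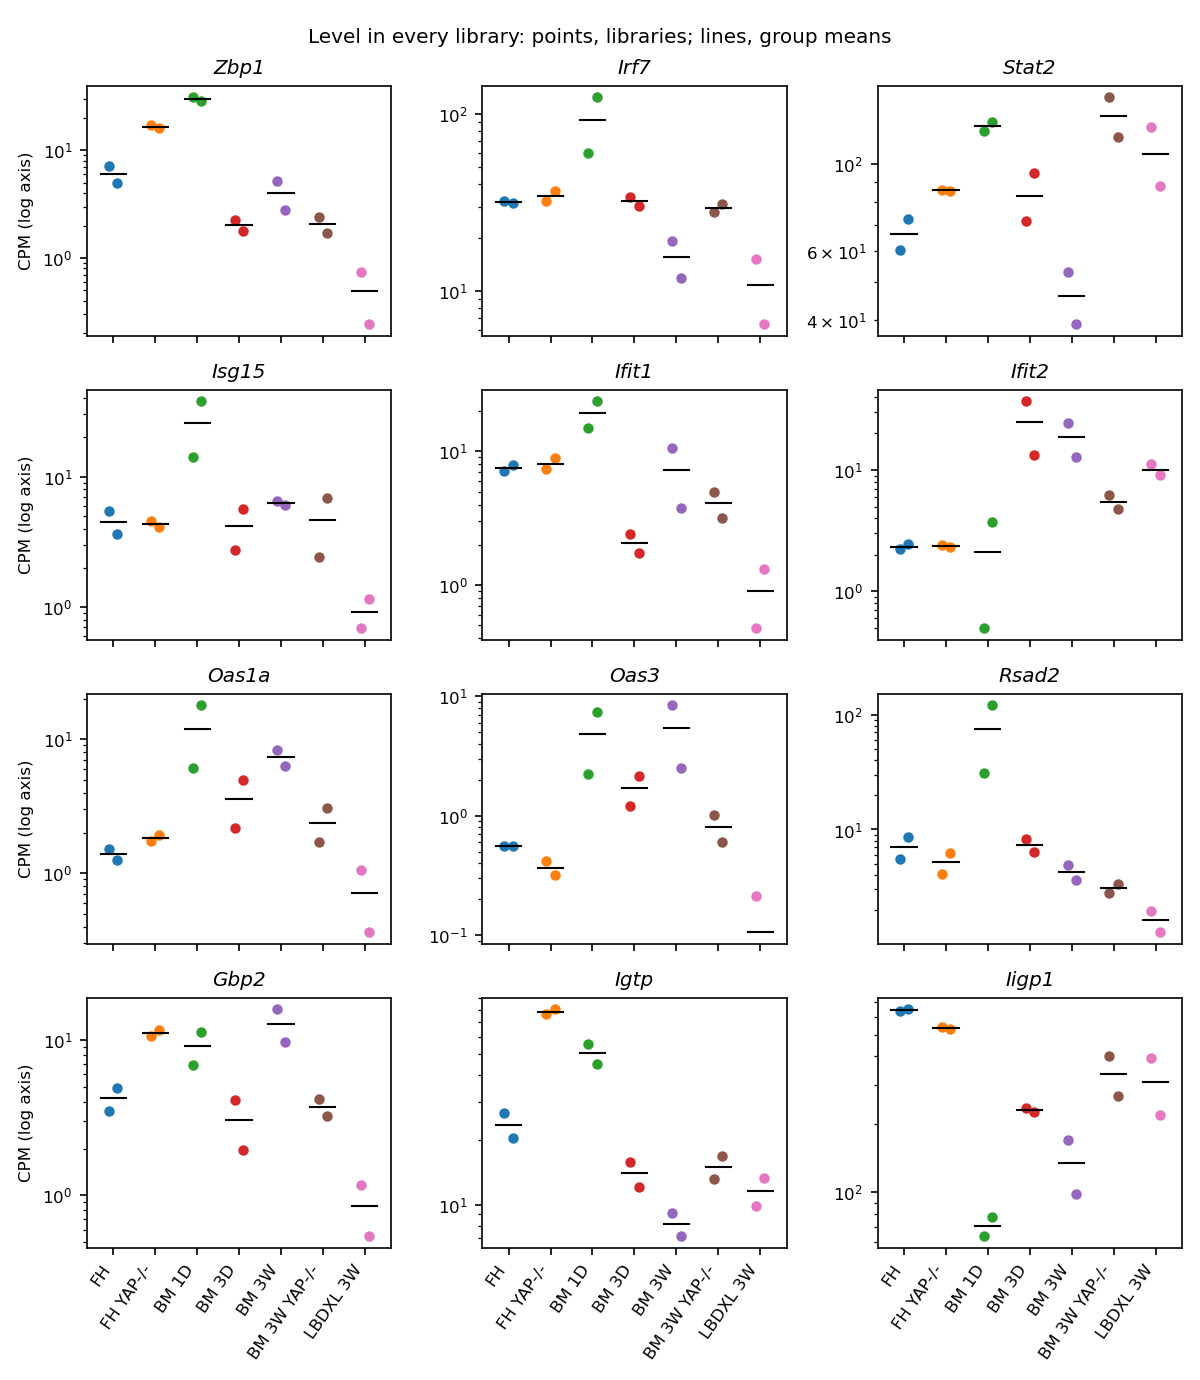
CPM of 12 genes in each of the 7 groups on log axes; points are libraries and lines group means. Oas3 was at 0 counts in LBDXL 3W library 2, which is not drawn; Rsad2 reached 30.7 and 121 CPM in BM 1D, and Iigp1 was at 63.8 and 77.9 CPM there against 638 and 646 CPM in FH.

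By the third day of BM culture most of these genes were back near or below the fresh level on the TMM scale. From BM 1D to BM 3D, 14 fell and 2 rose, where 1.6% of all genes fell and 3.67% rose. The median log2 fold change was -1.51 over the 36 genes and 0.023 over all genes. Zbp1 fell from 31.0 and 28.6 CPM to 2.23 and 1.77 CPM (-3.89 ± 0.45, adjusted p = 0.00264). Rsad2 fell from 30.7 and 121 CPM to 8.22 and 6.30 CPM (-3.38 ± 0.56, adjusted p = 0.00958), and Isg15 from 14.2 and 37.7 CPM to 2.75 and 5.66 CPM (-2.63 ± 0.60, adjusted p = 0.0315). In both, the BM 3D libraries lay below the lower of the BM 1D libraries.

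Each of the 9 role groups held at least 1 gene that fell. Ifit1 fell by 3.22 on the log2 scale, Gbp3 by 2.68, Dhx58 and Xaf1 by 2.30 each, Ifi44 by 2.25, Oasl1 by 2.12, Igtp by 1.84, Ifi35 by 1.46, Parp14 by 1.42, Irgm2 by 1.38 and Irf9 by 1.35. The genes that rose were Iigp1, from 63.8 and 77.9 CPM to 237 and 226 CPM (1.71 ± 0.35, adjusted p = 0.0222), and Ifit2. Ifit2 went from 0.496 and 3.70 CPM to 36.7 and 13.4 CPM (3.59 ± 0.76, adjusted p = 0.0241), while its neighbour Ifit3 was at 3.44 and 1.48 CPM in BM 3D. Summed Kupffer cell and macrophage markers were 77.5 to 119 CPM in BM 3D and the part of those cells was not tested.

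When BM 1D and BM 3D were fitted without the other groups, none of the 36 passed the edgeR test (lowest adjusted p 0.0872). No other gene passed either. At an unadjusted p under 0.05 in that fit, 2 of the 36 were higher and 26 lower. The DESeq2 Wald test on all libraries called 2 higher and 26 lower. Shares of all genes are not given here for these counts, so they cannot be set against a background. Without BM 3D library 1, 8 fell and none rose. The calls of Gbp3 and Oasl1 were lost without any 1 of the FH, BM 1D or BM 3D libraries, apart from Oasl1 without BM 3D library 2, and the calls of Isg15, Ifi35, Ifi44, Ifit1, Ifit2, Iigp1, Parp14 and Xaf1 were lost without at least 1 BM library.

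**Figure D4:**
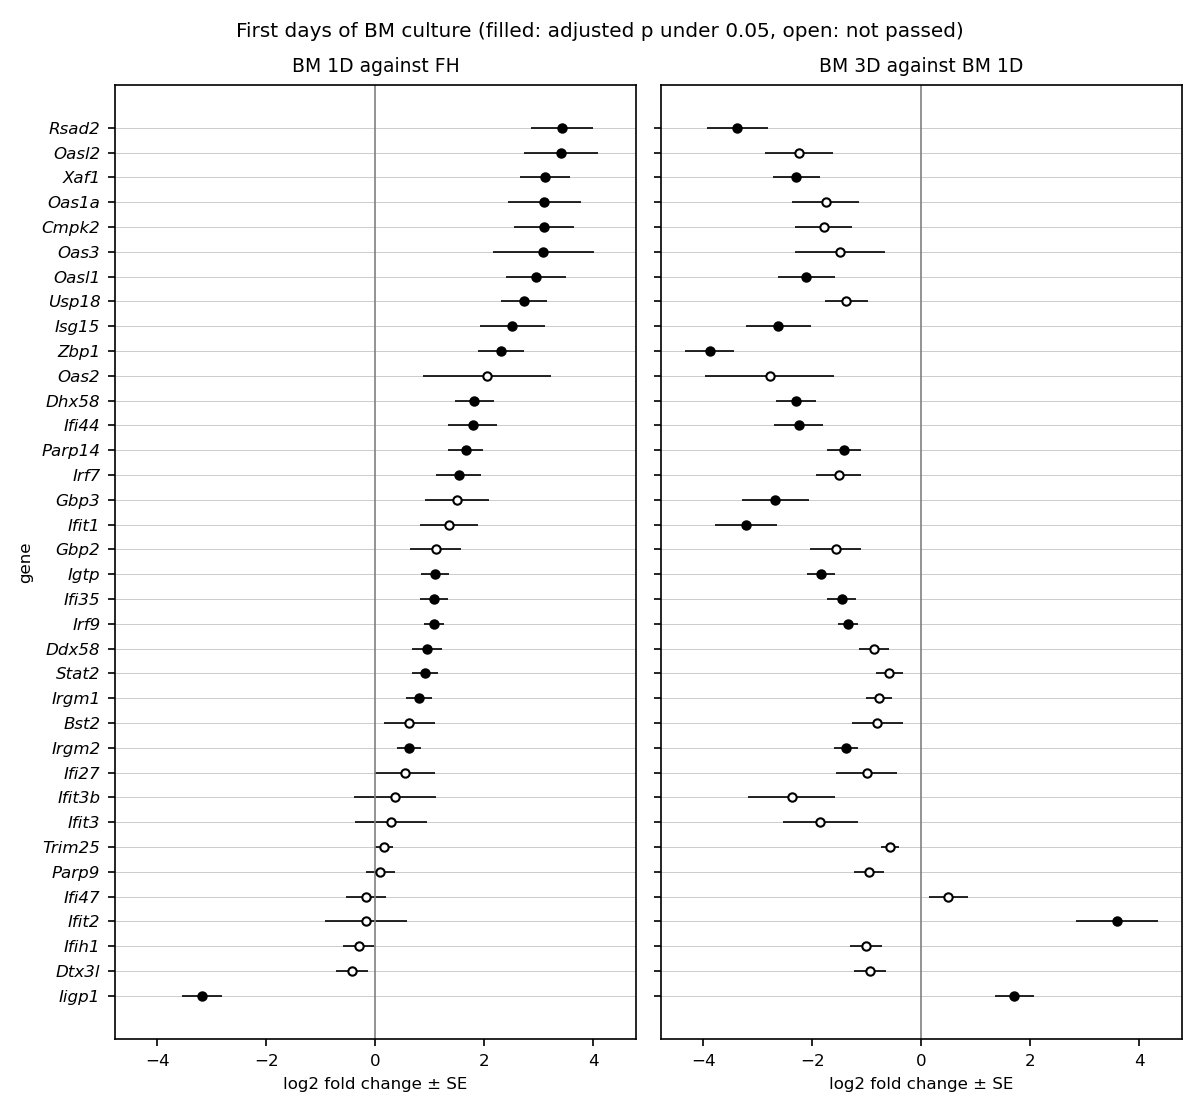
Log2 fold change with its SE for the 36 genes, BM 1D against FH on the left and BM 3D against BM 1D on the right; filled points passed at an adjusted p under 0.05. On the left 21 genes rose and 1 fell; on the right 14 fell and 2 rose.

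Against FH, the BM 3D libraries held 2 genes that rose and 8 that fell, where 22.5% of all genes rose and 17.9% fell, a share of risers below that of all genes. The comparisons of each culture with FH share the FH libraries, so they are not separate evidence. Ifit2 rose, from 2.23 and 2.45 CPM to 36.7 and 13.4 CPM (3.42 ± 0.76, adjusted p = 0.00477), and so did Usp18 (1.35 ± 0.41). Rsad2 and Isg15 had log2 fold changes of 0.05 and -0.11. Ifit1, Zbp1, Iigp1, Dtx3l, Ifih1, Parp9, Irgm2 and Igtp fell, by 1.86, 1.59, 1.47, 1.36, 1.33, 0.87, 0.76 and 0.74 on the log2 scale.

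Those 8 falls depended on the scaling. With scaling by total counts, 15 genes rose and none fell, where 7575 of all genes rose and 1038 fell. In the FPKM values none of the 36 fell either. In both, the signs of Igtp, Irgm2 and Parp9 turned. Total count scaling moved the median log2 fold change of all genes from 0.17 to 1.11 at BM 3D, from 0.17 to 1.08 at BM 1D and from 0.17 to 1.46 at BM 3W, all against FH. It moved it to 0.57 for LBDXL 3W against FH, 0.24 for BM 3W against BM 3D, -0.84 for LBDXL 3W against BM 3W, -0.66 for BM 3W YAP-/- against BM 3W and -0.75 for the interaction described further on, so calls made under it are relative to those shifts. The rise of Ifit2 held under each of the 23 alternatives, while that of Usp18 was lost without BM 3D library 2 or either FH library. The counts were 1 higher and 4 lower without BM 3D library 2, 1 and 3 without FH library 1, and 1 and 5 without FH library 2.

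At 3 weeks of BM culture the genes called higher than in FH were fewer than at 1 day and included 4 oligoadenylate synthetase genes. Against FH, 6 of the 36 rose and 9 fell, where 33% of all genes rose and 26.1% fell, so that the share of the 36 called was below that of all genes for rises and close to it for falls. Of the 5 oligoadenylate synthetase genes 4 rose, and Oasl1, at 5.51 CPM against 6.71 CPM in FH, did not pass. Oas2 was at 0.716 and 0.317 CPM in FH and at 10.2 and 3.59 CPM in BM 3W (3.72 ± 1.20, adjusted p = 0.0202). Oas3 was at 0.557 and 0.554 CPM in FH and at 8.37 and 2.49 CPM in BM 3W (3.27 ± 0.92, adjusted p = 0.0106). Oasl2 was at 1.83 and 1.35 CPM in FH and at 19.7 and 7.64 CPM in BM 3W (3.10 ± 0.67, adjusted p = 0.00242). BM 3W library 1 was above library 2 in all 3 and neither overlapped with FH.

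Oas1a, Ifit2 and Gbp2 also rose, with log2 fold changes of 2.39 ± 0.66, 2.99 ± 0.75 and 1.59 ± 0.47. Rsad2 did not pass in this comparison, at 4.87 and 3.59 CPM in BM 3W against 5.49 and 8.55 CPM in FH, and neither did Isg15, at 6.48 and 6.08 CPM against 5.41 and 3.64 CPM. Among the genes that fell, Iigp1 went from 638 and 646 CPM to 171 and 98.6 CPM (-2.25 ± 0.36, adjusted p = 0.000347). Dtx3l, a ubiquitin ligase partner of PARP9, went from 104 and 107 CPM to 29.3 and 18.1 CPM (-2.16 ± 0.30, adjusted p = 0.000152). Igtp, Parp9, Ifih1, Irgm2, Trim25, Irf7 and Ifi35 fell by 1.52, 1.51, 1.48, 1.33, 1.22, 1.04 and 0.90 on the log2 scale.

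Markers of several other cell types were far higher in this group. Kupffer cell and macrophage markers summed to 3086 to 3977 CPM in BM 3W against 103 to 151 CPM in FH, and of the 12 markers 10 rose and 2 fell. Stellate cell and fibroblast markers summed to 9058 to 10846 CPM in BM 3W against 89.7 to 109.7 CPM in FH, with 9 of 9 higher, and cholangiocyte markers to 4432 to 5134 CPM against 25.01 to 29.8 CPM, with 6 of the 6 tested higher. Endothelial markers went the other way, at 12.0 to 14.6 CPM in BM 3W against 87.7 to 109 CPM in FH, with 5 of 8 lower and none higher. All 10 hepatocyte markers fell. The part of these cells in the levels of the interferon-stimulated genes was not tested. Between the BM 3W libraries, library 1 was over 1.5 times library 2 for 20 of the 36 and library 2 over 1.5 times library 1 for 1. Library 2 had the lower hepatocyte sum, 5084 against 36409 CPM, and the part of this difference was not tested.

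Dtx3l, Ifit2, Iigp1 and Oasl2 kept the call under each of 24 alternatives, the last of which leaves out BM 3W library 2 and LBDXL 3W library 1 together. With total count scaling, 18 rose and 2 fell, Dtx3l and Iigp1, where 9282 of all genes rose and 1364 fell. Ifi35, Irf7 and Trim25 changed sign with that scaling. The falls of Igtp and Irgm2 were lost there and in the FPKM values. Oas2 and Oas3 lost the call without BM 3W library 1 or either FH library, Gbp2 without BM 3W library 1 or FH library 1, and Oas1a without FH library 2.

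Between BM 3D and BM 3W, 4 genes rose and 3 fell, where 13.5% of all genes rose and 10.9% fell, and the median log2 fold change was -0.14 over the 36 and -0.098 over all genes. Oas2, Gbp2, Oasl2 and Ifit1 rose, by 4.45 ± 1.22, 2.06 ± 0.48, 1.93 ± 0.62 and 1.80 ± 0.55. Stat2, Trim25 and Igtp fell by 0.86, 0.81 and 0.78 on the log2 scale. The split was 6 higher and none lower with total count scaling, beside the positive shift of all genes given above. It was 5 higher and 1 lower with DESeq2's size factors. The number called was 1, higher, when the pair of groups was fitted alone, and 3 or 4 without BM 3D library 1 or 2, BM 3W library 2, or any of the 4 fresh libraries.

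In LBDXL hepatocytes at 3 weeks many of these genes were at their lowest. Against FH 17 of the 36 fell and the other 19 did not pass, where 11.7% of all genes rose and 9.6% fell. The median log2 fold change was -1.16 over the 36 genes and 0.095 over all genes. In the edgeR test 2 genes were higher at an unadjusted p under 0.05, and these were Ifit2 (2.10 ± 0.74, adjusted p = 0.0661) and Stat2 (0.68 ± 0.24, adjusted p = 0.0712). Neither passed, and the share of all genes at that threshold is not given here. The DESeq2 Wald test called 1 higher, which was Ifit2, and 19 lower.

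Zbp1 was at 0.740 and 0.242 CPM in LBDXL 3W against 7.08 and 4.99 CPM in FH (-3.58 ± 0.50, adjusted p = 0.000818). Ifit1 was at 0.476 and 1.33 CPM against 7.16 and 7.83 CPM (-3.06 ± 0.60, adjusted p = 0.0053). Irf9 was at 12.3 and 11.9 CPM against 25.8 and 24.5 CPM (-1.05 ± 0.19, adjusted p = 0.00338). The libraries of the groups lay apart in all 3. Gbp3 fell by 3.35 on the log2 scale, Isg15 by 2.30, Gbp2 by 2.28, Ifit3 by 2.21, Ifi44 by 2.19, Rsad2 by 2.11, Ifih1 by 1.70, Irf7 by 1.55, Irgm2 by 1.50, Dhx58 by 1.39, Dtx3l by 1.36, Parp9 by 1.19, Igtp by 1.02 and Trim25 by 0.59.

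The calls of Zbp1, Ifih1, Irf9 and Irgm2 held under each of the 24 alternatives. The count was 8 lower without either FH library and 1 higher and 10 lower without LBDXL 3W library 2, and total count scaling gave 2 higher and 10 lower. Over all genes, total count scaling gave 3593 higher and 822 lower. Kupffer cell and macrophage markers summed to 5.26 to 5.97 CPM in LBDXL 3W, with Clec4f and Timd4 at 0 counts, against 103 to 151 CPM in FH, and 10 of the 12 fell. All 12 lymphocyte markers were at 0 in LBDXL 3W, and their sum was at most 2.69 CPM in any library. The part of these cells in the result was not tested.

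Set against BM hepatocytes of the same age, LBDXL hepatocytes had 15 of the 36 genes lower and 4 higher, where 23.7% of all genes were lower and 21.1% higher. The median log2 fold change was -0.88 over the 36 and -0.017 over all genes. Of the 5 oligoadenylate synthetase genes 4 were lower. Oas2 was at 0.211 and 0 CPM in LBDXL 3W against 10.2 and 3.59 CPM in BM 3W (-5.88 ± 1.38, adjusted p = 0.00614). Oas3 had the same 0.211 and 0 CPM, against 8.37 and 2.49 CPM in BM 3W (-5.54 ± 1.08, adjusted p = 0.00218). Both genes were at the level of single counts in LBDXL 3W, where the size of a fold change is uncertain. Oas1a was at 1.06 and 0.362 CPM against 8.33 and 6.32 CPM (-3.34 ± 0.68, adjusted p = 0.00291).

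Gbp2 was at 1.16 and 0.544 CPM in LBDXL 3W against 15.7 and 9.64 CPM in BM 3W (-3.87 ± 0.53, adjusted p = 0.000314). Gbp3 fell by 3.21 on the log2 scale, Ifit1 by 3.00, Zbp1 by 2.98, Oasl2 by 2.92, Isg15 by 2.77, Ifit3 by 2.70, Ifi44 by 2.68, Ifit3b by 2.29, Xaf1 by 1.89, Ifi47 by 1.08 and Irf9 by 0.88. Stat2 went the other way, at 124 and 87.9 CPM in LBDXL 3W against 52.9 and 38.9 CPM in BM 3W (1.21 ± 0.24, adjusted p = 0.00274). Iigp1, Dtx3l and Trim25 were also higher, by 1.19 ± 0.35, 0.79 and 0.63.

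Total count scaling gave none higher and 25 lower, beside the negative shift of all genes given above. The 4 higher calls were thus lost with it, and Dtx3l and Trim25 then changed sign. They were also lost without BM 3W library 2 and LBDXL 3W library 1 together, which left 17 lower. Gbp2, Ifi44, Ifit1, Oas1a and Zbp1 kept the call under each of the 24 alternatives, and Oas2 and Oas3 under the 22 in which they were tested. Fitted without the other groups, 1 gene was higher and 9 lower. The summed Kupffer cell and macrophage markers were 5.26 to 5.97 CPM in LBDXL 3W and 3086 to 3977 CPM in BM 3W, and 10 of the 12 were lower. Stellate cell and fibroblast markers summed to 278 to 503 CPM against 9058 to 10846 CPM, with 8 of 9 lower, and cholangiocyte markers to 14.7 to 27.3 CPM against 4432 to 5134 CPM, with 6 of 6 lower. The hepatocyte sum was 178238 to 217835 CPM against 5084 to 36409 CPM, with 9 of 10 higher, and the part of these cells in the differences was not tested.

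In fresh hepatocytes the YAP-/- genotype, with the Yap1 level given above, went with a single call among the 36. Igtp rose from 26.6 and 20.3 CPM in FH to 76.5 and 80.1 CPM in FH YAP-/- (1.74 ± 0.25, adjusted p = 0.0129), where 0.489% of all genes rose and 0.454% fell. Other GTPases and Zbp1 stood higher without passing. Gbp3 was at 6.68 and 5.78 CPM in FH and at 17.3 and 20.1 CPM in FH YAP-/- (adjusted p = 0.398), and Zbp1 at 7.08 and 4.99 CPM and at 17.0 and 16.2 CPM (adjusted p = 0.19). Irgm2 was at 54.1 and 53.4 CPM and at 101 and 97.4 CPM (adjusted p = 0.114). The libraries of the 2 groups did not overlap for these genes, but how often that holds over all genes was not counted.

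Trim25 was at 156 and 154 CPM in FH and at 89.4 and 89.7 CPM in FH YAP-/- (-0.79 ± 0.17, adjusted p = 0.0623). At an unadjusted p under 0.05, 6 genes were higher and 1 lower, with the share of all genes at that threshold not given here. Fitted alone, the 2 fresh groups gave 15 higher and 3 lower, while the calls over all genes went from 69 higher and 64 lower to 2050 and 2201, and the DESeq2 Wald test on all libraries gave 3 higher and 1 lower. For each gene the main fit shares 1 estimate of the spread between fresh and cultured groups. The chi-square per degree of freedom between libraries was 5.49 in FH and 4.04 in FH YAP-/-, and 68.0 to 235 in the cultures. The part of this difference was not tested. The call of Igtp was lost without any 1 of the 4 fresh libraries. The Kupffer cell and macrophage sum was 198 to 224 CPM in FH YAP-/- against 103 to 151 CPM in FH, and its part was not tested.

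At 3 weeks of BM culture, the YAP-/- genotype went with 7 genes higher and 2 lower, where 15% of all genes rose and 16.6% fell. The median log2 fold change went the other way, at -0.32 over the 36 genes and -0.026 over all genes. At an unadjusted p under 0.05 in the edgeR test, 9 genes were higher and 8 lower, with the share of all genes at that threshold not given here. This comparison and that of LBDXL 3W share the BM 3W libraries. Stat2 was at 148 and 117 CPM in BM 3W YAP-/- against 52.9 and 38.9 CPM in BM 3W (1.53 ± 0.25, adjusted p = 0.00159). Its log2 fold change in LBDXL 3W against the same libraries was 1.21. Bst2, Iigp1, Igtp, Ifi35, Irgm2 and Trim25 rose by 1.50 ± 0.48, 1.32 ± 0.35, 0.88 ± 0.25, 0.86 ± 0.26, 0.71 ± 0.22 and 0.58 ± 0.17. Bst2 was at 59.1 and 127 CPM in BM 3W YAP-/- and at 26.4 and 39.4 CPM in BM 3W, and its call was lost without either BM 3W library or BM 3W YAP-/- library 2.

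Gbp2 fell from 15.7 and 9.64 CPM to 4.18 and 3.22 CPM (-1.78 ± 0.47, adjusted p = 0.0164), and Oas3 from 8.37 and 2.49 CPM to 1.02 and 0.604 CPM (-2.73 ± 0.87, adjusted p = 0.0349). Oas2 was at 1.17 and 0.905 CPM against 10.2 and 3.59 CPM and did not pass (-2.72 ± 1.10, adjusted p = 0.0799), nor did Oas1a (-1.62 ± 0.62, adjusted p = 0.0672). In LBDXL 3W the log2 fold changes of Gbp2, Oas3, Oas2 and Oas1a against the same BM 3W libraries were -3.87, -5.54, -5.88 and -3.34.

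The call of Stat2 held under each of the 24 alternatives, and those of Gbp2 and Oas3 were lost without BM 3W library 1 or either BM 3W YAP-/- library. Total count scaling gave 1 higher and 16 lower, turning the sign of Trim25, beside the negative shift of all genes given above. DESeq2's size factors gave 4 higher and 3 lower. The calls were 1 higher and 3 lower without BM 3W library 2, 4 and 0 without BM 3W YAP-/- library 1, 2 and 0 without library 2, 3 and 2 without FH library 2, and 9 and 6 without either LBDXL 3W library. The Kupffer cell and macrophage sum was 375 to 431 CPM in BM 3W YAP-/- against 3086 to 3977 CPM in BM 3W, and 9 of the 12 fell. Stellate cell and fibroblast markers summed to 408 to 489 CPM against 9058 to 10846 CPM. Cholangiocyte markers summed to 94.1 to 112 CPM against 4432 to 5134 CPM, with 2 of the 6 tested lower. The hepatocyte sum was 104851 to 126293 CPM against 5084 to 36409 CPM, with 7 of 10 markers higher, and the part of all these cells was not tested.

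**Figure D5:**
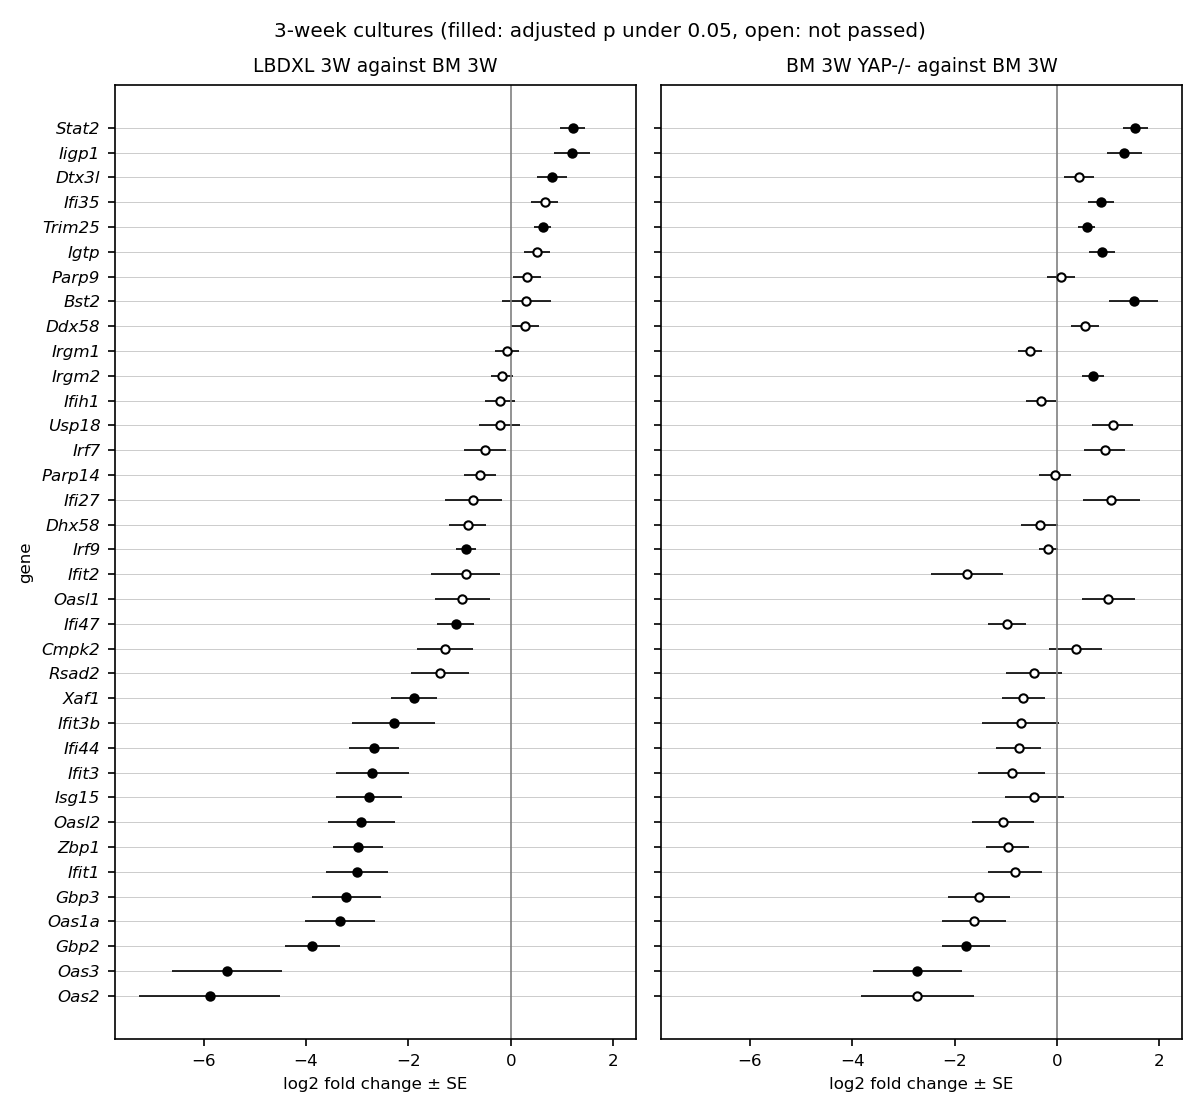
Log2 fold change with its SE for the 36 genes in the 3-week cultures, LBDXL 3W against BM 3W on the left and BM 3W YAP-/- against BM 3W on the right; filled points passed at an adjusted p under 0.05. On the left 15 genes were lower and 4 higher; on the right 7 were higher and 2 lower.

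Whether the YAP-/- genotype acted differently in fresh and in cultured hepatocytes was tested as an interaction, the YAP-/- effect at BM 3W minus that in FH. It passed for 3 genes in the positive and 4 in the negative direction, where 8.04% and 8.84% of all genes did. The fresh YAP-/- libraries held 23.1 and 26.5 CPM of Yap1 and the cultured ones 6.66 and 7.75 CPM, and the part of this difference was not tested. Gbp2 had an interaction of -3.18 ± 0.67 (adjusted p = 0.0111): it was at 10.6 and 11.7 CPM in FH YAP-/- against 3.50 and 4.91 CPM in FH, and lower than BM 3W in the YAP-/- culture. Trim25 had one of 1.37 ± 0.24 (adjusted p = 0.00502). None of the 7 held under every alternative. The split was 0 positive and 9 negative with total count scaling, beside the negative shift of all genes given above. It was 1 and 4 with DESeq2's size factors, and 3 positive and 10 negative when the 4 groups were fitted alone. Leaving out BM 3W library 1 or 2, either BM 3W YAP-/- library or any of the 4 fresh libraries left 1 to 4 calls.

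The 11 interferon genes listed as ligands were close to absent from the counts. Interferon genes outside that list, and times other than those sampled, were not examined. Of the 11, 8 were at 0 counts in all 14 libraries. The other 3, Ifng, Ifnk and Ifnz, reached at most 2 counts in a library. A count of 0 allows up to 3 counts, which is 0.141 to 0.194 CPM of total counts in these libraries and covers counting error only.

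Of the 11 receptor and JAK-STAT genes listed, 3 rose and 1 fell at BM 1D, where 23.6% of all genes rose and 20.2% fell, and the median log2 fold change was 0.16 against 0.17 over all genes. Ifnlr1, the subunit specific to type III interferon, was at 0 counts in all 4 fresh libraries. It had 36 and 91 counts in BM 1D, or 3.18 ± 2.20 CPM. That mean was at least 13.3-fold higher than the FH level that a floor of 3 counts per library allows. The bound leaves out the spread between the BM 1D libraries. Ifnlr1 stood at 5.53 ± 1.86 CPM in BM 3D and 3.54 ± 2.62 CPM in LBDXL 3W. The level was 8.29 ± 2.46 CPM for BM 3W, and 9.29 ± 2.40 CPM for the same culture labelled YAP-/-. The spreads of these cultured groups overlap in part. Its partner Il10rb rose from 3.45 to 17.1 CPM from FH to BM 1D (2.31 ± 0.38), and Ifngr1, of the type II receptor, from 18.2 to 93.2 CPM (2.36 ± 0.56, lost without FH library 2). Ifnar2, of the type I receptor, fell from 91.2 to 31.4 CPM (-1.54 ± 0.22, adjusted p = 0.00034).

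A further list of 21 interferon-induced genes was followed through the same comparisons. At BM 1D against FH, 11 rose and 1 fell, with a median log2 fold change of 0.65, where 23.6% of all genes rose and 20.2% fell. Samd9l rose by 2.44 ± 0.42, Eif2ak2, the kinase PKR that halts translation, by 2.02 ± 0.30, Adar, an RNA editing enzyme, by 1.80 ± 0.21, and Rnf213 by 1.75 ± 0.29. These 4 held under each of the 23 alternatives. From BM 1D to BM 3D, where 1.6% of all genes fell, 6 fell and 15 did not pass, among the former Rtp4 by 2.53, Gbp7 by 2.19, Rnf213 by 1.27 and Adar by 1.07 on the log2 scale, and all 4 lost the call when the groups were fitted alone.

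At 3 weeks, 10 of the 21 rose and 5 fell in BM 3W against FH, where 33% of all genes rose and 26.1% fell. Gbp9 went from 3.41 to 29.8 CPM (3.13 ± 0.51), Tor3a from 2.42 to 16.6 CPM (2.78 ± 0.49) and Trim30a from 3.69 to 18.8 CPM (2.34 ± 0.48), while Ifitm3, which blocks viral entry, fell by 2.07 on the log2 scale. In LBDXL 3W against FH, where 9.6% of all genes fell, 6 fell and 15 did not pass, with Gbp7 at 2.24 against 29.2 CPM and Ifitm3 at 41.0 against 272 CPM. Against BM 3W, where 23.7% of all genes fell, 10 fell and 11 did not pass in LBDXL 3W. Gbp9 fell from 29.8 to 1.12 CPM. Epsti1, at 0 counts in LBDXL 3W, was at least 19.5-fold lower than the BM 3W mean of 3.54 ± 1.83 CPM. That bound leaves out the spread between the BM 3W libraries. In BM 3W YAP-/- against BM 3W, where 15% of all genes rose and 16.6% fell, 1 rose and 7 fell, among them Gbp7, Sp100, Gbp9 and Trim30a by 2.70, 2.34, 1.98 and 1.98 on the log2 scale.

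The genes of MHC class I presentation were also followed. Of the 12 listed, 1 rose and 3 fell at BM 1D, where 23.6% of all genes rose and 20.2% fell. Tap1, which carries peptides into the endoplasmic reticulum, rose by 1.25 ± 0.24, and B2m, the light chain, fell by 1.10 on the log2 scale, a call that was lost without any 1 of the FH and BM 1D libraries. In BM 3W against FH, where 26.1% of all genes fell, 7 fell and 5 did not pass, with H2-K1 at 354 against 1308 CPM (-1.89 ± 0.35). In BM 3W YAP-/- against BM 3W, where 15% of all genes rose, 4 rose and 8 did not pass, and H2-K1 was at 1351 CPM (1.93 ± 0.35) and B2m rose by 1.61 ± 0.37. The falls of H2-K1 and B2m in BM 3W were lost with total count scaling.

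Among 16 genes of the sensing pathways upstream of interferon, 5 rose and 2 fell at BM 1D, with a median log2 fold change of 0.23 against 0.17 over all genes and 23.6% of all genes rising and 20.2% falling. Irf1 rose by 0.85 ± 0.21 (lost without FH library 1), and Mavs, the mitochondrial adaptor of RNA sensing, fell by 1.44 on the log2 scale (lost with total count scaling). In LBDXL 3W against BM 3W, 4 rose and 8 fell, where 21.1% of all genes rose and 23.7% fell. Tlr7, an endosomal RNA receptor found mainly in immune cells, was at 0 counts in LBDXL 3W and at 23.1 ± 9.43 CPM in BM 3W. It was at least 128-fold lower than the BM 3W mean, a bound that leaves out the spread between libraries. Tmem173, which encodes STING, fell by 4.68 on the log2 scale and Tlr4 fell by 4.27, whereas Mavs rose by 1.71 ± 0.28. Macrophage markers differed in the same direction as Tlr7 and Tlr4, as given above, and their part was not tested. Of 7 tested negative regulators of the response, 1 rose and 3 fell at BM 1D, where 23.6% of all genes rose and 20.2% fell.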

How the data were processed

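mRNA was sequenced in 14 libraries (TruSeq stranded, paired-end, HiSeq), 2 for each of 7 groups taken from the sample titles. The authors deposited gene-level counts and FPKM values in separate tables, both on GRCm38.p6; the submitters' processing notes name Trimmomatic, HISAT2, Cufflinks, HTSeq and DESeq, with no versions or roles, and the sources used here do not give the strand setting of the counting. Reads of overlapping genes on opposite strands (8 of the 36 genes have such an overlap) and of near-identical copies (Ifit, Oas and Gbp genes) may therefore be divided uncertainly.

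The deposited counts were tested with edgeR 4.0.16 (quasi-likelihood, TMM scaling, filterByExpr, 1 mean per group over all 14 libraries) in R 4.3.3, with Benjamini-Hochberg adjustment over 14100 genes and a threshold of 0.05. An SE is the log2 fold change divided by the root of the F statistic. CPM are TMM-scaled unless total counts are named; the deposited FPKM, which the authors scaled by length and depth, were tested in limma 3.58.1 as log2(FPKM + 1), with genes of mean FPKM of at least 0.5, as an alternative. Other alternatives were a pseudocount of 0.1, no filter, total count scaling, DESeq2's size factors, DESeq2 1.42.0, the replicate number as a block, the groups alone, and each library left out. The fit was tested on simulated counts. The members and lists were chosen with earlier results of these data known, and the joint omission of LBDXL 3W library 1 and BM 3W library 2 was added after seeing the data. All members may be named, with values in every library for those with the smallest p in each role group; from each pathway list at most 4 genes with the smallest p are named, and 1 further gene of these lists is not reported here. Promoter windows and sequences are from RefSeq, and Python 3.11.15, pandas 2.3.3 and matplotlib 3.10.9 were used for tables and figures. A count of 0 was read against a floor of 3 counts.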

Additional observations from a re-analysis of the deposited data

Results flagged for a closer look

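The effect of the YAP-/- genotype differed between freshly isolated hepatocytes and BM hepatocytes at 3 weeks for 7 of the 36 genes, by the edgeR test of the interaction (effect in BM 3W minus effect in FH, log2 scale, adjusted p under 0.05). The 3 positive and 4 negative calls stand beside 8.04% and 8.84% of all genes that passed in those directions, a share near that of the 36. Gbp2, Gbp3, Zbp1 and Ifi47 had negative interactions, of -3.18 ± 0.67 (adjusted p = 0.0111), -3.11 ± 0.85 (adjusted p = 0.0308), -2.42 ± 0.59 (adjusted p = 0.0199) and -1.72 ± 0.52 (adjusted p = 0.0434). Gbp3 was at 6.68 and 5.78 CPM in FH, 17.3 and 20.1 CPM in FH YAP-/-, 8.51 and 2.85 CPM in BM 3W and 1.41 and 2.51 CPM in BM 3W YAP-/-. Zbp1 was at 5.18 and 2.82 CPM in BM 3W and 2.38 and 1.71 CPM in BM 3W YAP-/-. Trim25, Iigp1 and Stat2 had positive interactions, of 1.37 ± 0.24 (adjusted p = 0.00502), 1.59 ± 0.49 (adjusted p = 0.0476) and 1.16 ± 0.34 (adjusted p = 0.0417). Trim25 was at 156 and 154 CPM in FH, 89.4 and 89.7 CPM in FH YAP-/-, 72.4 and 60.5 CPM in BM 3W, and 99.6 ± 0.51 CPM (SD, n = 2) in BM 3W YAP-/-. Every one of the 7 lost its call under at least 1 alternative setting.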

How the results depend on the processing

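The numbers of the 36 genes called (higher and lower together) ranged, when 1 library was left out at a time, from 14 to 24 for BM 1D against FH, 4 to 12 for BM 3D against FH, 10 to 17 for BM 3W against FH, 8 to 19 for LBDXL 3W against FH, 8 to 22 for BM 3D against BM 1D, 3 to 10 for BM 3W against BM 3D, 14 to 20 for LBDXL 3W against BM 3W, 0 to 2 for FH YAP-/- against FH, 2 to 15 for BM 3W YAP-/- against BM 3W and 1 to 8 for the interaction. With the groups compared fitted alone, the number was 0 for BM 3D against BM 1D, 1 for BM 3W against BM 3D, 10 for LBDXL 3W against BM 3W, 18 for FH YAP-/- against FH and 13 for the interaction. The DESeq2 Wald test gave 28 for BM 3D against BM 1D, 4 for FH YAP-/- against FH and 15 for BM 3W YAP-/- against BM 3W. With limma on log2(FPKM + 1), log2(FPKM + 0.1) and log2(FPKM + 1) with no filter, the number was 3, 2 and 5 for FH YAP-/- against FH, 14, 15 and 15 for BM 3W YAP-/- against BM 3W, and 14, 13 and 14 for the interaction; for LBDXL 3W against FH it was 9 with the pseudocount of 1 and 5 with that and no filter. Total count scaling gave 17 for BM 3W YAP-/- against BM 3W. The cause of these changes was not tested.

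Single log2 fold changes changed sign with total count scaling and in the same 3 limma fits. For BM 3D against FH, Igtp was 0.22, then 0.14, 0.16 and 0.14, Irgm2 0.19, then 0.16, 0.18 and 0.16, and Parp9 0.090, then 0.069, 0.074 and 0.069. For BM 3W against FH, Ifi35 was 0.39, then 0.16, 0.18 and 0.16, Irf7 0.23, then 0.18, 0.19 and 0.18, and Trim25 0.066, then 0.048, 0.051 and 0.048. For LBDXL 3W against BM 3W, Trim25 was -0.19, then -0.14, -0.15 and -0.14, and Dtx3l was -0.0053 with total count scaling. For BM 3W YAP-/- against BM 3W, Trim25 was -0.047, then -0.016, -0.017 and -0.016.

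With the replicate number as a block, the numbers called higher and lower were, against FH, 22 and 1 for BM 1D, 2 and 8 for BM 3D, 7 and 10 for BM 3W and 0 and 20 for LBDXL 3W, 2 and 18 for BM 3D against BM 1D, 4 and 6 for BM 3W against BM 3D, 4 and 16 for LBDXL 3W against BM 3W, 1 and 0 for FH YAP-/- against FH, 7 and 2 for BM 3W YAP-/- against BM 3W, and 3 and 4 for the interaction. Whether the replicate numbers pair samples was not settled. Of 21 pairs of groups, 5 had a correlation of same-numbered deviations over 0.1, with a range from -0.023 to 0.46 and a median of 0.018. A low median cannot exclude pairing in some of the groups. With 2 libraries per group and totals of 15501005 to 21220365 counts, genes near single counts, such as Oas2 and Oas3 in LBDXL 3W, have uncertain fold changes.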

Other observations

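Ifit2 and Cmpk2, on chromosomes 19 and 12, have the same count in each of the 4 fresh libraries (28 and 31 in FH, 35 and 29 in FH YAP-/-) and different counts in the cultured libraries, where Ifit2 was at 0.496 and 3.70 CPM and Cmpk2 at 19.8 and 20.4 CPM in BM 1D. Of the 28 genes with a promoter window, those with an ISRE core had a median log2 fold change of 1.02 at BM 1D against FH (9 of 16 rose) and those without one 1.31 (8 of 12 rose). In LBDXL 3W against BM 3W the medians were -1.84 (8 of 16 fell) and -0.91 (5 of 12 fell). These are descriptions, and no difference between the 2 sets was tested.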
